A study of Mus musculus with 18 samples.

Results

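Fat cells can turn chemical energy into heat through uncoupling protein 1, encoded by Ucp1, which lets protons leak back into the mitochondrial matrix, and they can also do so by cycles that spend ATP without net work. In the creatine cycle, creatine kinases move a phosphoryl group from ATP onto creatine and a phosphatase removes it again, so that ADP is returned to the mitochondria. In the calcium cycle, SERCA pumps spend ATP to load calcium into the endoplasmic reticulum and release channels let it out again. The 9 genes described here were chosen by symbol as the creatine kinases Ckb, Ckmt1 and Ckmt2, the creatine synthesis enzymes Gatm and Gamt, the creatine transporter Slc6a8, the alkaline phosphatase Alpl, and the SERCA pumps Atp2a1 and Atp2a2. They are 9 of 24338 gene symbols listed for every sample, and their values were read in each of the 6 groups beside Ucp1.

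Polyadenylated RNA of mice was sequenced from whole inguinal white fat (iWAT), a depot under the skin, and from cultured cells of its stromal-vascular fraction. The 6 groups held 3 samples each, 18 in all. They were NFIA-Tg iWAT and WT iWAT, NFIA-Tg cultures at day 7 and WT cultures at day 7, and NFIA-Tg cultures at day 0 and WT cultures at day 0. NFIA-Tg stands for a transgene of NFIA, the nuclear factor I protein A, which binds DNA as a transcription factor, and WT for wild type. The sources used here do not give the promoter that drives the transgene, the age and sex of the mice or any pooling of animals. Day 0 cultures had not been induced. For differentiation, confluent cells of either genotype received 0.5 mM isobutylmethylxanthine, 125 nM indomethacin, 1 µM dexamethasone, 850 nM insulin, 1 nM T3 and 1 µM rosiglitazone for 48 h, and afterwards insulin, T3 and rosiglitazone alone. Day 7 groups therefore share a chemical induction that iWAT did not receive. Nothing says that samples of a group came from separate mice or cultures, and the p-values then reflect no more than the spread among those samples, which may be technical.

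Nfia itself was read first as a check of the labels. It stood at 166, 99.6 and 157 FPKM (sequenced fragments for a gene, divided by its length and by the size of the library) in NFIA-Tg iWAT, against 3.73, 4.19 and 3.94 FPKM in WT iWAT. At day 0 it was 11.3, 12.5 and 11.9 FPKM in NFIA-Tg cultures, against 6.42, 6.30 and 6.51 FPKM in WT cultures. At day 7 the order was the opposite of the label, with libraries labelled NFIA-Tg at 6.44, 7.32 and 7.20 FPKM, against 12.5, 13.0 and 12.01 FPKM in those labelled WT. Every genotype direction at day 7 below is therefore one between libraries labelled NFIA-Tg and libraries labelled WT. Of the defining adipocyte markers, Adipoq, Plin1, Fabp4 and Cidec were all abundant in iWAT and at day 7, and none exceeded 19.9 FPKM at day 0. The summed level of 10 adipocyte markers was 26138 to 29798 FPKM in NFIA-Tg and 25509 to 29864 FPKM in WT cultures at day 7, although Adipoq alone was 259, 276 and 240 FPKM in NFIA-Tg against 1284, 1275 and 1325 FPKM in WT. Culture libraries held 16772594 to 28625625 recovered reads, while for iWAT the depth is unknown.

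The members differed widely in level, and each had its own pattern across the 6 groups. Atp2a2 was at 35.8 FPKM or more in all 18 libraries. Ckb, Gamt, Slc6a8 and Alpl were above 1 FPKM in all 18. Gatm exceeded 1 FPKM only in iWAT, Ckmt1 only in NFIA-Tg cultures at day 0, and Atp2a1 only in 1 WT iWAT library. Ckmt2 never reached 1 FPKM. In the cultures, FPKM is per listed length and can be set side by side between genes within a library. The iWAT tables list longer gene lengths than the culture tables, such as 48712 against 5725 bases for Atp2a2. With the genes at 1 FPKM or more in both iWAT and the cultures split into 5 groups by the ratio of their listed lengths, the median ratio of the groups ran from 2.098 to 25.1, while the median log2 ratio of iWAT over culture FPKM lay between -0.34 and 0.02, so the iWAT FPKM did not scale down with the listed length. How the iWAT FPKM was computed is not given in the labels. A level set between genes within iWAT, or across iWAT and cultures, is therefore a description.

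**Figure D1:**
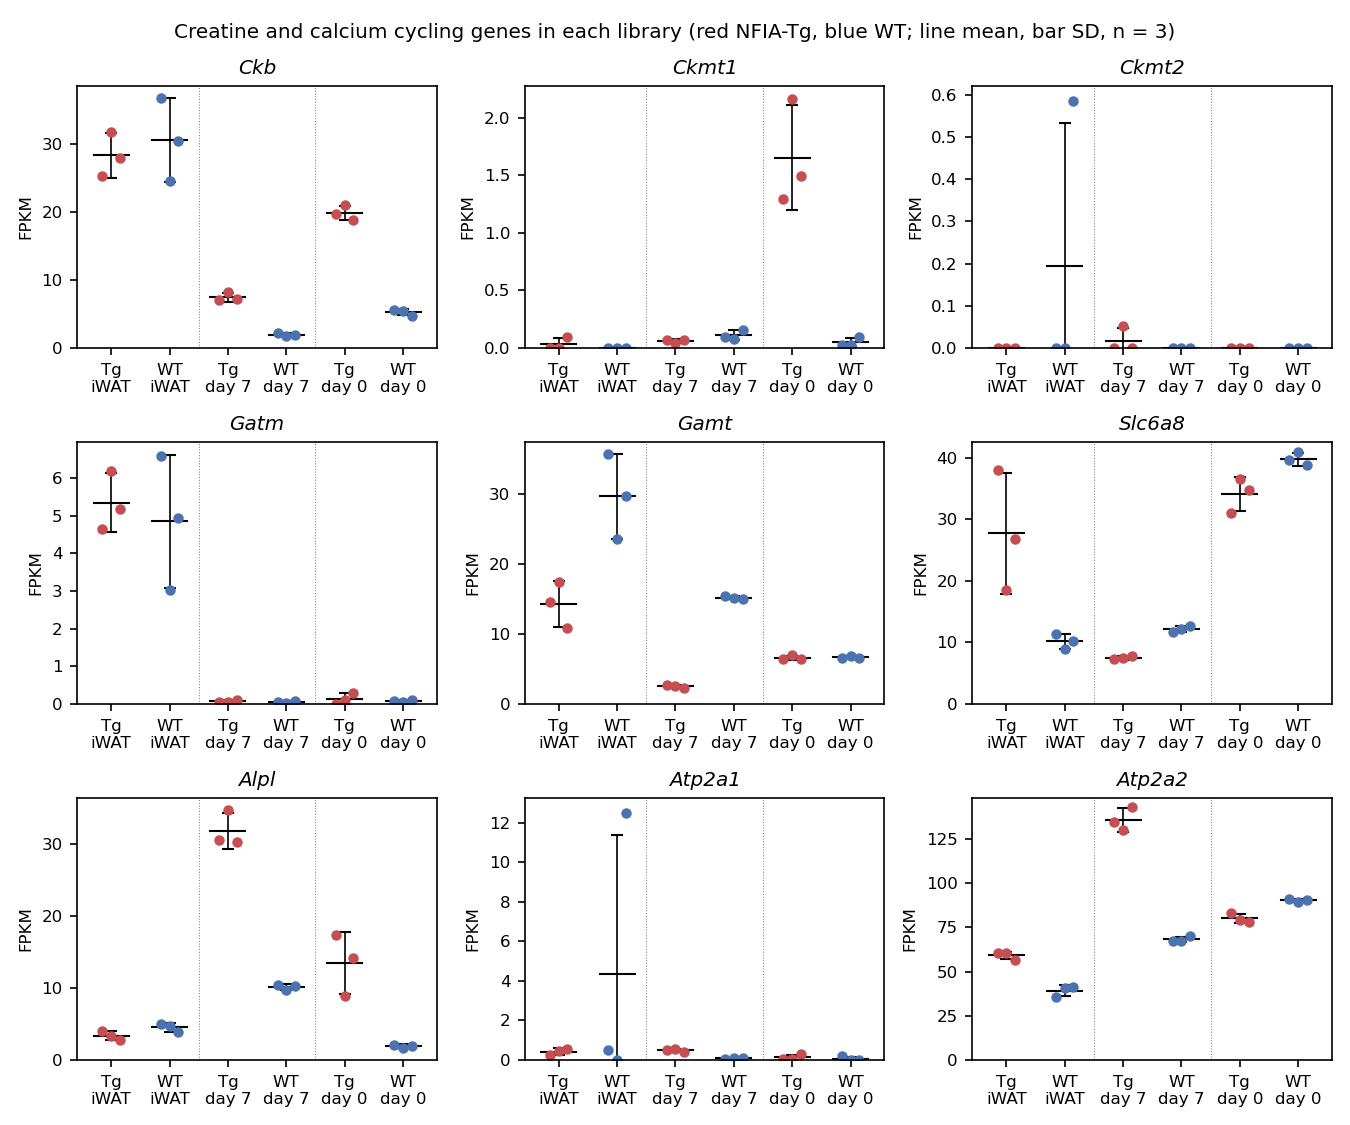
FPKM of the 9 genes in each of the 18 libraries, with NFIA-Tg in red and WT in blue, a line for the mean and a bar for the SD of 3 libraries; the vertical scale differs between panels and starts at 0. Ckb is high in iWAT of both genotypes and separates the genotypes in the cultures, Gatm is seen in iWAT, and Atp2a1 and Ckmt2 stand out in 1 WT iWAT library.

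The stretches just upstream of the transcription starts are shown for the members whose genotype change on the log2(FPKM + 1) scale was the largest in the cultures, Ckb and Alpl upwards and Gamt downwards. Each is the 250 bases before an annotated start, on the gene's own strand and credited to RefSeq, on GRCm38.p6, which is not the build named for the deposited files. Capitals mark the core motif of nuclear factor I proteins, TTGGC, read on either strand, so that GCCAA is the same motif on the other strand. Ckb lies at chr12:111672339-111672588 on the minus strand, Gamt at chr10:80261013-80261262 on the minus strand, and the upstream and downstream starts of Alpl at chr4:137796385-137796634 and chr4:137766476-137766725, both on the minus strand.
Ckb: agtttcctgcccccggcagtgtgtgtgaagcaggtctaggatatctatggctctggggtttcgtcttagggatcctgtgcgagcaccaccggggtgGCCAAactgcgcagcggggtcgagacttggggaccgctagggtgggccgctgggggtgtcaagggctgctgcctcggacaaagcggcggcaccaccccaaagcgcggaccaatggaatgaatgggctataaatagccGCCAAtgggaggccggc
Gamt: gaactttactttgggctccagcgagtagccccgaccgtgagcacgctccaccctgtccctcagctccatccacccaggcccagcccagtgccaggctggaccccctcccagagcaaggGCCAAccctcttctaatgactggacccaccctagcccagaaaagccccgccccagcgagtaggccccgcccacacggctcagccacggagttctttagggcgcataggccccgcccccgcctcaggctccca
Alpl upstream start: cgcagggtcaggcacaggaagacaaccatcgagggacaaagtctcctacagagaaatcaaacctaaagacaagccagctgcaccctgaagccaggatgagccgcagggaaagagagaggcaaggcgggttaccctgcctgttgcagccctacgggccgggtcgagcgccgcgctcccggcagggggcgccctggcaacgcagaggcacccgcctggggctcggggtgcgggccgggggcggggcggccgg
Alpl downstream start: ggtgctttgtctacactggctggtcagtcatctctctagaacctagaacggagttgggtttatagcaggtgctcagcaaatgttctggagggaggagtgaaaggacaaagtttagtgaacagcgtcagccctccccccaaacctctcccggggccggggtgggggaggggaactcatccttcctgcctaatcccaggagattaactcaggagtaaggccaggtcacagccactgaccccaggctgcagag

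The Ckb stretch held 2 copies of the core motif, Gamt held 1, and neither Alpl stretch held any. A promoter stretch was at hand for 7 of the 9 members. Gatm, Atp2a1, Ckmt2 and the more upstream Ckmt1 start had 1 copy each. The core motif occurred in 41.5% of 32851 such promoters, so its presence sets no member apart. The full palindrome, TTGGC and GCCAA with any 5 bases between, occurred in 0.0365% of all promoters and in none of these, and the same held for the PPAR direct repeat, 2 copies of AGGTCA with any 1 base between (0.0335% of all), the ERR element TCAAGGTCA (0.387%) and the cAMP response element TGACGTCA (1.55%), each searched on both strands. A match is a description of the letters, and its absence says nothing of what lies outside the window.

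In iWAT, NFIA-Tg tissue had more of the creatine transporter and of the SERCA2 pump and less of the last enzyme of creatine synthesis, while no difference was called for Ckb. With limma on log2(FPKM + 1), 6 of the 9 members reached 1 FPKM in 3 or more of the 6 libraries and were tested, and 3 were called at an adjusted p under 0.05, 2 higher and 1 lower in NFIA-Tg. Over all 12396 genes tested, 11.4% were called, 5.96% higher and 5.44% lower. The 1413 genes behind that share became 617 to 1262 when 1 library was left out, the fewest without WT replicate 3. Ckmt1, Ckmt2 and Atp2a1 were too low to be tested. The median log2 change of the 6 tested members was 0.03, beside 0.05 for all genes tested.

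Slc6a8, which carries creatine into the cell, stood at 38.0, 18.4 and 26.8 FPKM in NFIA-Tg iWAT, against 11.4, 8.91 and 10.3 FPKM in WT iWAT. Every NFIA-Tg library was above every WT library, and NFIA-Tg replicate 2 was the nearest to WT. Its mean was 2.73-fold higher in NFIA-Tg (log2 change 1.31 ± 0.23 SE, limma adjusted p = 0.0109). Atp2a2, the SERCA2 pump, stood at 60.4, 60.4 and 56.7 FPKM in NFIA-Tg iWAT, against 35.8, 40.5 and 41.3 FPKM in WT iWAT. The groups did not overlap, and the mean was 1.51-fold higher in NFIA-Tg (log2 change 0.58 ± 0.10, limma adjusted p = 0.00895). In bulk tissue, a change in the share of cells that carry a transcript and a change in its amount per cell cannot be told apart.

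Gamt, the methyltransferase that completes creatine from guanidinoacetate, stood at 14.6, 17.4 and 10.8 FPKM in NFIA-Tg iWAT, against 35.8, 23.6 and 29.8 FPKM in WT iWAT. The groups did not overlap, and the WT mean was 2.08-fold above that of NFIA-Tg (log2 change -1.01 ± 0.20, limma adjusted p = 0.0158). The call was lost without WT replicate 3, where the log2 change was -1.001 and the adjusted p 0.0550. Gatm, which makes guanidinoacetate from arginine and glycine, stood at 4.65, 6.19 and 5.19 FPKM in NFIA-Tg iWAT, against 6.57, 3.02 and 4.94 FPKM in WT iWAT. The groups overlapped, and Gatm was not called (log2 change 0.16 ± 0.23, limma adjusted p = 0.681).

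Ckb, the cytosolic creatine kinase, stood at 25.2, 31.7 and 27.8 FPKM in NFIA-Tg iWAT, against 36.7, 24.5 and 30.4 FPKM in WT iWAT. The groups overlapped and no difference was called (log2 change -0.10 ± 0.16, limma adjusted p = 0.722). Alpl, the tissue-nonspecific alkaline phosphatase that can hydrolyse phosphocreatine in thermogenic fat cells of mice, stood at 3.99, 3.32 and 2.78 FPKM in NFIA-Tg iWAT, against 5.02, 4.75 and 3.86 FPKM in WT iWAT, with overlap of 1 library each (log2 change -0.35 ± 0.15, limma adjusted p = 0.180). Ckmt1, the ubiquitous mitochondrial creatine kinase, was listed at 0 in 5 of 6 iWAT libraries and at 0.0988 FPKM in NFIA-Tg replicate 3.

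Ucp1 was low in iWAT of both genotypes. It stood at 1.25, 4.08 and 1.33 FPKM in NFIA-Tg, against 1.11, 1.87 and 0.767 FPKM in WT, with overlapping groups and no call (log2 change 0.44 ± 0.33, limma adjusted p = 0.418). Without NFIA-Tg replicate 2 the log2 change was 0.05. In the same tissue, 14 genes of the thermogenic comparison list were tested, Ucp1 among them. Of these, 7 were called higher and 1 lower, beside 5.96% and 5.44% of all genes tested. Cox8b, a cytochrome c oxidase subunit, averaged 758 ± 162 FPKM in NFIA-Tg and 44.4 ± 23.7 FPKM in WT (SD, n = 3 each; limma adjusted p = 0.000884), and P2rx5, an ATP-gated channel used as a brown fat marker, averaged 23.5 ± 4.07 FPKM in NFIA-Tg and 2.91 ± 0.97 FPKM in WT (limma adjusted p = 0.000448). In FPKM, Ckb, Gatm, Gamt, Slc6a8 and Atp2a2 were each above Ucp1 in all 6 iWAT libraries, and Alpl in all but NFIA-Tg replicate 2.

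Skeletal muscle genes moved with 2 of the members in iWAT. Atp2a1, the SERCA1 pump of fast-twitch muscle, was 0.243, 0.449 and 0.572 FPKM in NFIA-Tg iWAT, against 0.509, 0 and 12.5 FPKM in WT iWAT. The high value was that of WT replicate 3, which was also the only iWAT library with Ckmt2, the sarcomeric mitochondrial creatine kinase, above 0 (0.584 FPKM). The same library had Ckm, the muscle creatine kinase, at 16.4 FPKM, Myh4 at 11.99, Mylpf at 13.6 and Tnnt3 at 18.7 FPKM, and 15 of 24 skeletal muscle markers at 1 FPKM or more, against 4 to 9 in the other 5. The summed level of the 24 markers was 95.2 to 136 FPKM in NFIA-Tg and 173 to 271 FPKM in WT, most of it Acta1 in WT. Without WT replicate 3, Slc6a8 and Atp2a2 were still called (log2 changes 1.32 and 0.62, limma adjusted p 0.0388 and 0.0292), while Gamt lost its call (limma adjusted p = 0.0550). The Gamt log2 change was -1.001 in that fit, against -1.01 with all libraries, and the genes called over all fell from 1413 to 617. Acta1 was also high in the WT libraries that remained. The part of skeletal muscle in the member calls was not tested. Endothelial markers summed to 509 to 691 FPKM in NFIA-Tg and 964 to 1001 FPKM in WT iWAT, and their part in the 3 calls was not tested.

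**Figure D2:**
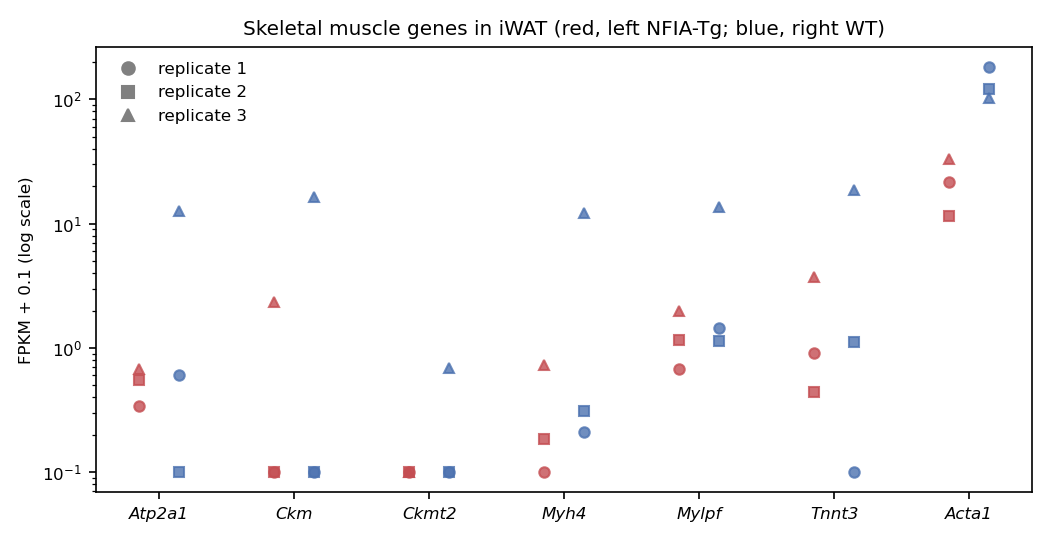
FPKM plus 0.1 on a log scale of Atp2a1, Ckm, Ckmt2 and 4 skeletal muscle markers in the 6 iWAT libraries, NFIA-Tg in red at the left and WT in blue at the right of each gene, with a symbol for each replicate. WT replicate 3 is the highest library for every gene except Acta1, which is above 100 FPKM in all 3 WT libraries.

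The calls among the linked pathways in iWAT, where 11.4% of all genes were called, are given list by list. Of 9 tested genes of phosphoryl transfer and adenine nucleotide exchange, 0 were called, and the most abundant, the ADP/ATP carrier Slc25a5, averaged 284 ± 56.3 FPKM in NFIA-Tg and 224 ± 20.6 FPKM in WT (limma adjusted p = 0.226). Of 16 genes of arginine and methyl-donor supply, Oat, an ornithine aminotransferase, rose (99.8 ± 5.07 FPKM in NFIA-Tg, 70.9 ± 8.11 FPKM in WT, limma adjusted p = 0.0265) and Ass1, which makes the precursor of arginine, fell (2.37 ± 0.59 FPKM in NFIA-Tg, 9.07 ± 4.74 FPKM in WT, limma adjusted p = 0.0167). Of 6 phosphatase and phosphate genes, Ank, a pyrophosphate exporter, rose and Phospho1, a phosphocholine phosphatase, fell to 1.31 ± 0.19 FPKM in NFIA-Tg, against 3.65 ± 1.20 FPKM in WT (limma adjusted p = 0.0181).

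Counts on the calcium side also stand beside 11.4% of all genes called in iWAT, 5.96% higher and 5.44% lower. A count near these shares sets no list apart. Of 4 tested SERCA regulators, 1 rose and 1 fell. S100a1, a calcium sensor that binds SERCA2 in the heart, averaged 210 ± 11.8 FPKM in NFIA-Tg and 122.7 ± 31.5 FPKM in WT (limma adjusted p = 0.0305), and 1810037I17Rik, listed in RefSeq with the synonym Aln, averaged 54.98 ± 1.6 FPKM in NFIA-Tg and 75.3 ± 6.53 FPKM in WT (limma adjusted p = 0.0275). Of 20 genes of calcium release and store handling, Asph rose (log2 change 0.62) and Jph1, a junctophilin that ties the reticulum to the plasma membrane, fell (log2 change -0.93). Mcur1, a regulator of the mitochondrial calcium uniporter, was the 1 call among 12 mitochondrial calcium genes (43.7 ± 5.52 FPKM in NFIA-Tg, 27.9 ± 0.98 FPKM in WT, limma adjusted p = 0.0129). Trpv1, the capsaicin-gated cation channel, was the 1 call among 8 plasma membrane and Golgi genes (5.77 ± 1.04 FPKM in NFIA-Tg, 1.18 ± 0.34 FPKM in WT, limma adjusted p = 0.00166). Atp2a3, the SERCA3 pump, was 51.1, 51.1 and 69.8 FPKM in NFIA-Tg, against 67.5, 53.5 and 49.8 FPKM in WT, and was not called.

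At day 7 the libraries labelled NFIA-Tg had more Ckb, Alpl and Atp2a2 and less Gamt and Slc6a8 than those labelled WT, beside a far higher Ucp1 level. All 12 cultures were fitted together, and 6 members were tested, of which 5 were called in this comparison, 3 higher and 2 lower in NFIA-Tg. The share over all 12553 genes tested was 80.9%, 29.8% higher and 51.1% lower, so being called sets no member apart. Of all calls 36.9% were higher, and 48.1% under quantile normalization, which moved the median of all genes by 0.15 on the log2 scale and turned no called member round. The libraries also differed in summed preadipocyte and fibroblast markers, at 243 to 330 FPKM in NFIA-Tg against 1072 to 1209 FPKM in WT, and their part in the member changes was not tested.

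Ckb stood at 6.99, 8.23 and 7.22 FPKM in NFIA-Tg cultures at day 7, against 2.24, 1.74 and 1.94 FPKM in WT cultures. The groups did not overlap, and the mean was 3.80-fold higher in NFIA-Tg (log2 change 1.51 ± 0.08, limma adjusted p = 1.90e-09). Alpl stood at 30.5, 34.7 and 30.2 FPKM in NFIA-Tg, against 10.4, 9.69 and 10.2 FPKM in WT, again with no overlap (3.14-fold, log2 change 1.56 ± 0.17, limma adjusted p = 2.08e-06). Ckmt1 was at 2 to 3 reads in each NFIA-Tg library and at 3 to 6 reads in each WT library, with no call (limma adjusted p = 0.537). It was among the members tested here only because NFIA-Tg cultures at day 0 had passed the filter on low values. At so few reads the missing call says nothing about a change.

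Gamt stood at 2.77, 2.56 and 2.30 FPKM in NFIA-Tg cultures at day 7, against 15.4, 15.2 and 15.0 FPKM in WT cultures. The WT mean was 5.97-fold above that of NFIA-Tg (log2 change -2.19 ± 0.05, limma adjusted p = 3.24e-12), the largest change of the 6 members in this comparison. Slc6a8 stood at 7.26, 7.40 and 7.85 FPKM in NFIA-Tg, against 11.8, 12.2 and 12.7 FPKM in WT (log2 change -0.64 ± 0.06, limma adjusted p = 3.15e-07), a direction opposite to that in iWAT. Gatm was at 3 to 4 reads in each NFIA-Tg library and at 2 to 4 reads in each WT library, too low to be tested.

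Atp2a2 stood at 134, 130 and 143 FPKM in NFIA-Tg cultures at day 7, against 67.1, 67.6 and 70.0 FPKM in WT cultures. The mean was 1.99-fold higher in NFIA-Tg (log2 change 0.98 ± 0.04, limma adjusted p = 3.08e-10), and it was the highest level of the gene in any group. Atp2a1 was at 44, 50 and 24 reads in NFIA-Tg, against 5, 7 and 6 reads in WT. It missed the filter on low values, and without that filter its log2 change was 0.46 ± 0.08 (limma adjusted p = 0.00058). That fit called 11614 of 19109 genes in this comparison. The 24 skeletal muscle markers summed to 24.1 to 28.6 FPKM in NFIA-Tg and 14.1 to 15.1 FPKM in WT. Their part in the Atp2a1 change was not tested. Atp2a3, the third SERCA gene, stood at 41.6, 40.4 and 44.4 FPKM in NFIA-Tg, against 5.49, 4.96 and 4.57 FPKM in WT (log2 change 2.85 ± 0.06, limma adjusted p = 1.93e-12). As a share of the FPKM of the 3 SERCA genes, Atp2a3 made up 23.6% to 23.7% in NFIA-Tg and 6.11% to 7.56% in WT, and the summed level was 171 to 188 FPKM in NFIA-Tg against 72.6 to 74.7 FPKM in WT.

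Ucp1 stood at 208, 248 and 268 FPKM in NFIA-Tg cultures at day 7, against 0.872, 0.738 and 0.414 FPKM in WT cultures, a 358-fold difference of means (log2 change 7.18 ± 0.10, limma adjusted p = 8.28e-14). In NFIA-Tg cultures it was above each of the 9 members, and in WT cultures it was below Ckb, Gamt, Slc6a8, Alpl and Atp2a2. Of 14 tested genes of the thermogenic comparison list, Ucp1 among them, 13 rose and 0 fell, beside 29.8% and 51.1% of all genes tested. Cidea, a lipid droplet protein of brown fat, averaged 23.5 ± 0.32 FPKM in NFIA-Tg and 0.169 ± 0.122 FPKM in WT (SD, n = 3 each; limma adjusted p = 2.82e-13).

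**Figure D3:**
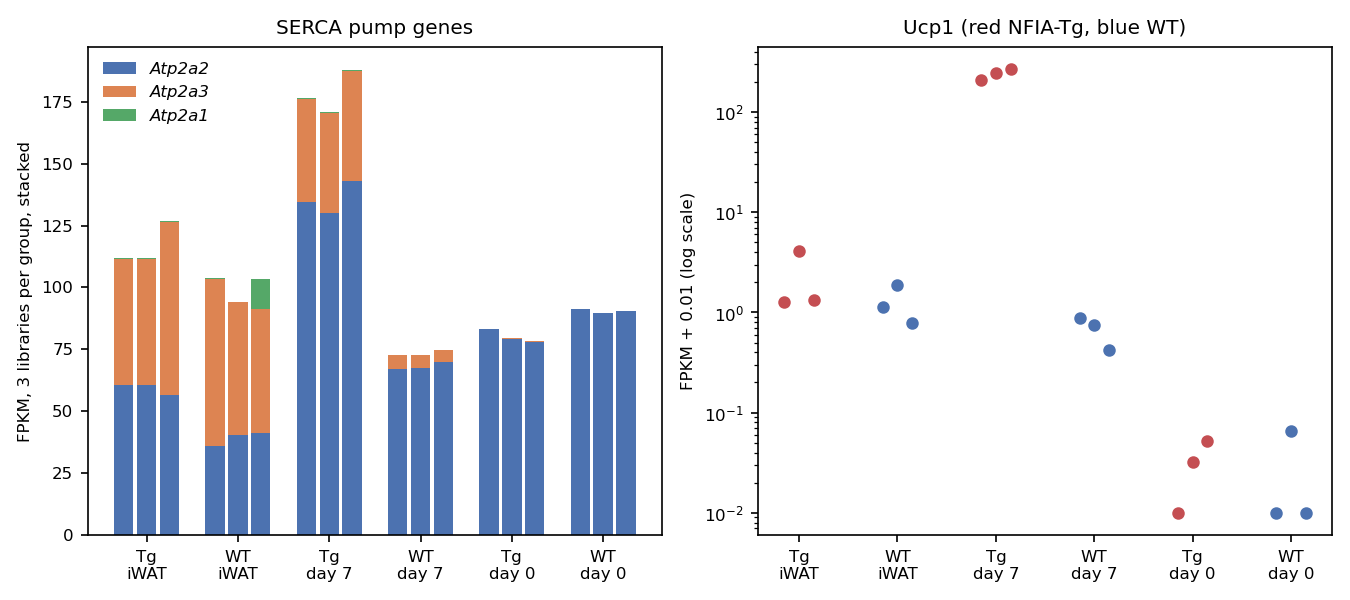
Left, FPKM of the 3 SERCA genes stacked for each of the 18 libraries; right, Ucp1 FPKM plus 0.01 on a log scale, with NFIA-Tg in red and WT in blue. NFIA-Tg cultures at day 7 have the tallest SERCA stacks, 171 to 188 FPKM, and the highest Ucp1, 208 to 268 FPKM, while iWAT has SERCA stacks of 94.0 to 127 FPKM with Ucp1 of at most 4.08 FPKM.

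Linked pathway counts at day 7 stand beside 80.9% of all genes called, 29.8% higher and 51.1% lower, and a count near these shares sets no list apart. Among 11 tested phosphoryl transfer genes, 7 rose and 3 fell, including the adenylate kinase Ak1 (11.1 ± 0.61 FPKM in NFIA-Tg, 27.4 ± 1.99 FPKM in WT, limma adjusted p = 3.24e-10). Of 16 arginine and methyl-donor genes, 9 rose and 5 fell. Ahcy, which clears the by-product of methyltransferases such as Gamt, rose to 88.8 ± 12.6 FPKM in NFIA-Tg, against 31.9 ± 2.23 FPKM in WT, and Nnmt, a nicotinamide methyltransferase that uses the same methyl donor, fell to 20.1 ± 0.56 FPKM in NFIA-Tg, against 92.5 ± 6.81 FPKM in WT (limma adjusted p 7.70e-09 and 6.48e-12). Of 7 phosphatase and phosphate genes, 5 rose and 2 fell. The phosphate exporter Xpr1 averaged 12.02 ± 1.25 FPKM in NFIA-Tg and 4.37 ± 0.04 FPKM in WT, and Ank 46.9 ± 0.87 FPKM in NFIA-Tg and 20.4 ± 0.60 FPKM in WT (limma adjusted p 1.68e-09 and 6.13e-10).

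Of 4 tested SERCA regulators, leaving aside the pump Atp2a3, 2 rose and 0 fell at day 7, among them Hax1, a partner of phospholamban, at 86.6 ± 4.45 FPKM in NFIA-Tg and 44.4 ± 3.22 FPKM in WT (limma adjusted p = 6.75e-09). Beside 80.9% of all genes called at day 7, genes of calcium release and store handling gave 7 higher and 7 lower of 19. Tmbim6, a calcium leak protein of the reticulum, averaged 1438 ± 76.2 FPKM in NFIA-Tg and 275 ± 10.6 FPKM in WT (limma adjusted p = 1.18e-12), whereas the inositol trisphosphate receptor Itpr3 averaged 0.946 ± 0.066 FPKM in NFIA-Tg and 3.04 ± 0.23 FPKM in WT (limma adjusted p = 9.15e-10). Of 12 mitochondrial calcium genes, 7 rose and 4 fell. The calcium-dependent ATP-Mg/phosphate carriers moved apart, Slc25a23 to 24.2 ± 1.25 FPKM in NFIA-Tg against 10.3 ± 0.60 FPKM in WT, and Slc25a25 to 3.59 ± 0.33 FPKM in NFIA-Tg against 20.7 ± 0.98 FPKM in WT. Of 9 plasma membrane and Golgi genes, 3 rose, including the cation channel Trpv2 (log2 change 2.01), and 5 fell, including the calcium pump Atp2b4 (log2 change -1.65).

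At day 0, before induction, NFIA-Tg cultures already had more Ckb and Alpl than WT cultures. Of the 6 tested members, 5 passed, with 3 up and 2 down in NFIA-Tg, beside 63.0% of the 12553 genes tested, 28.1% higher and 34.9% lower. Ckb stood at 19.6, 21.0 and 18.8 FPKM in NFIA-Tg, against 5.52, 5.42 and 4.71 FPKM in WT (3.80-fold, log2 change 1.74 ± 0.08, limma adjusted p = 2.24e-09). Alpl stood at 17.3, 8.90 and 14.1 FPKM in NFIA-Tg, against 2.12, 1.60 and 1.97 FPKM in WT (7.07-fold, log2 change 2.27 ± 0.17, limma adjusted p = 1.69e-07). The groups did not overlap for either gene, and Alpl varied most among the NFIA-Tg libraries, with replicate 2 the lowest.

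Ckmt1 appeared at day 0 in NFIA-Tg cultures, with 46, 100 and 73 reads, or 1.30, 2.17 and 1.497 FPKM, against 1, 1 and 4 reads in WT cultures. It passed the filter on low values only through those 3 libraries, so its call (log2 change 1.33 ± 0.10, limma adjusted p = 1.97e-07) is a description of them, and it dropped out of the test when any of them was left out. On recovered reads with voom its log2 change was 4.95, as the pseudocount of 1 FPKM shrinks the change of so low a gene. The other calls were small. Slc6a8 stood at 31.1, 36.6 and 34.8 FPKM in NFIA-Tg, against 39.6, 40.9 and 38.8 FPKM in WT (log2 change -0.22 ± 0.06, limma adjusted p = 0.00488), and Atp2a2 at 83.2, 79.4 and 78.2 FPKM in NFIA-Tg, against 91.2, 89.7 and 90.5 FPKM in WT (log2 change -0.17 ± 0.04, limma adjusted p = 0.00306).

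Gamt was at 6.44, 6.95 and 6.41 FPKM in NFIA-Tg cultures at day 0, against 6.52, 6.80 and 6.64 FPKM in WT cultures, with no call (log2 change -0.01 ± 0.05, limma adjusted p = 0.868). Ucp1 had 3 reads in all over the NFIA-Tg libraries and 2 reads over the WT libraries. Ckmt2 had 0 reads in 11 of 12 cultures, which allows up to 0.0705 to 0.120 FPKM per library at a limit of 3 reads, and 2 reads in 1 NFIA-Tg culture at day 7. Gatm had 0 to 20 reads per culture library. Limits and read numbers cover counting error only.

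**Figure D4:**
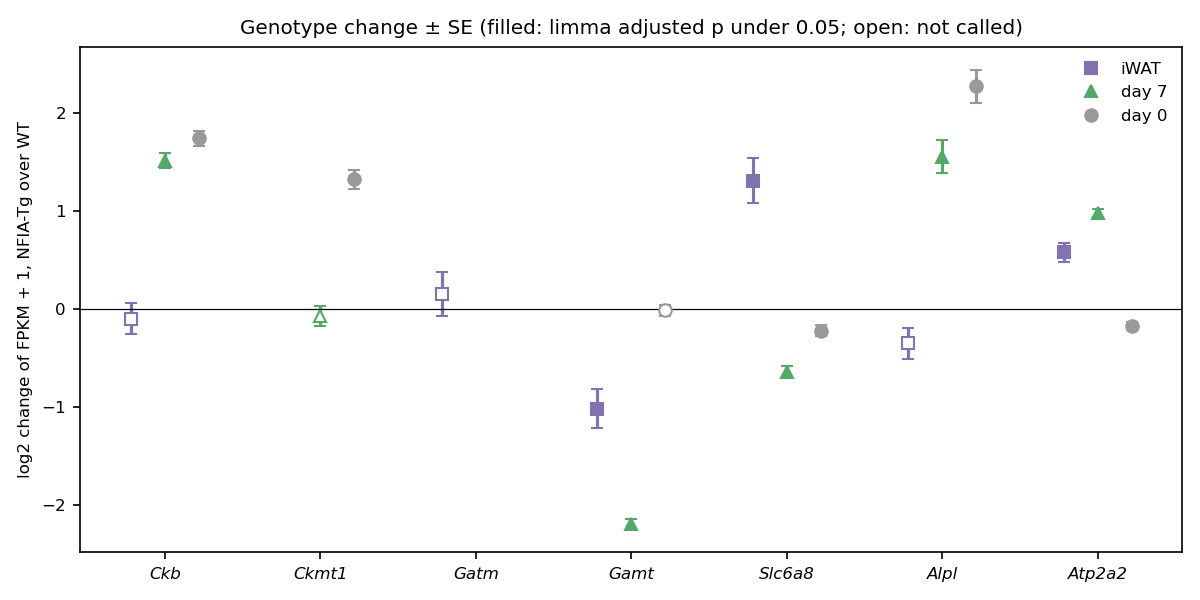
Log2 change of FPKM + 1 ± SE, NFIA-Tg over WT, of the 7 members tested in at least 1 setting, in iWAT (squares), at day 7 (triangles) and at day 0 (circles); filled symbols have a limma adjusted p under 0.05 and a member is missing where it was too low to test. Ckb and Alpl are called higher at day 7 and day 0 and are not called in iWAT, Gamt is lowered in iWAT and at day 7, and Slc6a8 is raised in iWAT and lowered at day 7 and day 0.

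Linked pathway counts at day 0 stand beside 63.0% of all genes called, 28.1% higher and 34.9% lower, and a count near these shares sets no list apart. Phosphoryl transfer genes gave 1 rise and 6 falls of 11, with Ak1 higher (101 ± 1.23 FPKM in NFIA-Tg, 66.6 ± 1.47 FPKM in WT, limma adjusted p = 9.55e-07). Arginine and methyl-donor genes gave 4 rises and 8 falls of 16. Ass1 averaged 142 ± 5.92 FPKM in NFIA-Tg and 44.8 ± 5.30 FPKM in WT (limma adjusted p = 7.59e-08), and the serine hydroxymethyltransferase Shmt1 4.66 ± 0.14 FPKM in NFIA-Tg and 7.17 ± 0.11 FPKM in WT. In the phosphate list, 2 of 7 rose, including Ank, and 2 fell, including the pyrophosphate-making Enpp1 at 9.40 ± 0.53 FPKM in NFIA-Tg and 23.1 ± 0.62 FPKM in WT (limma adjusted p = 5.96e-09). Of 4 SERCA regulators, Tmx1, a thioredoxin-like protein of the reticulum, fell and none rose. Calcium release genes gave 8 rises, led by the store sensor Stim1 (25.3 ± 0.19 FPKM in NFIA-Tg, 12.7 ± 0.55 FPKM in WT), and 5 falls, led by Itpr3, of 19. Mitochondrial calcium genes gave 3 rises, Slc25a23 and the uniporter subunit Smdt1 among them, and 5 falls of 12. Plasma membrane and Golgi genes gave 5 rises and 1 fall of 9, with the T-type calcium channels Cacna1g (29.1 ± 2.02 FPKM in NFIA-Tg, 4.63 ± 0.61 FPKM in WT) and Cacna1h (log2 change 1.77) leading.

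Between day 7 and day 0 the members were called about as often as all genes, so being called sets none apart. In the libraries labelled NFIA-Tg, all 6 tested members were called, 2 higher and 4 lower, beside 87.2% of all genes tested, 45.7% higher and 41.5% lower. In WT cultures 5 of 6 were called, 2 higher and 3 lower, beside 81.6% of all genes, 46.2% higher and 35.4% lower, with 56.6% of all WT calls higher and 46.1% under quantile normalization. Ckb fell in both, to a mean of 7.48 FPKM at day 7 against 19.8 FPKM at day 0 in NFIA-Tg, and to 1.97 FPKM against 5.22 FPKM in WT, so that the day 0 mean was 2.65-fold that of day 7 in either genotype (log2 changes -1.30 and -1.07, limma adjusted p 3.69e-09 and 4.05e-08). The difference between these falls was not called (log2 -0.23 ± 0.11, limma adjusted p = 0.0792). Without WT replicate 2 at day 7 it was called (limma adjusted p = 0.0366), and likewise without NFIA-Tg replicate 2 at day 7 (limma adjusted p = 0.0308). On log2(FPKM + 1), an equal ratio gives a smaller change at a lower level, and the ratio here was 2.65-fold in either genotype. On recovered reads with voom the difference was 0.082 (limma adjusted p = 0.69). Slc6a8 fell in both, to 7.504 FPKM at day 7 against 34.2 FPKM at day 0 in NFIA-Tg, and to 12.2 FPKM against 39.8 FPKM in WT. Alpl rose in both, to 31.8 FPKM at day 7 against 13.4 FPKM at day 0 in NFIA-Tg, and to 10.1 FPKM against 1.90 FPKM in WT (log2 changes 1.22 and 1.94).

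Gamt and Atp2a2 moved in opposite directions in the genotypes. Gamt fell to 2.54 FPKM at day 7 against 6.60 FPKM at day 0 in NFIA-Tg, whereas it rose to 15.2 FPKM against 6.66 FPKM in WT (log2 changes -1.10 and 1.08, limma adjusted p 3.13e-10 and 6.66e-10). Atp2a2 rose to 136 FPKM at day 7 against 80.2 FPKM at day 0 in NFIA-Tg, whereas it fell to 68.3 FPKM against 90.5 FPKM in WT (log2 changes 0.75 and -0.40, limma adjusted p 1.46e-09 and 1.23e-06). Under quantile normalization the Atp2a2 changes were 0.38 and -0.69. Ckmt1 was tested here only because NFIA-Tg cultures at day 0 had passed the filter, so its call in NFIA-Tg (log2 change -1.31), 1 of the 4 lower ones, is a description of those libraries. In WT it was at 0.08 (limma adjusted p = 0.439).

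The genotype effect at day 7 minus that at day 0, the test of these contrasts, was called for 5 of 6 tested members, 1 higher and 4 lower, beside 72.1% of all genes tested, 29.5% higher and 42.6% lower, with 40.9% of all calls higher and 52.3% under quantile normalization. It was -2.18 ± 0.07 on the log2 scale for Gamt (limma adjusted p = 1.37e-10), 1.15 ± 0.06 for Atp2a2 (3.63e-09), -0.42 ± 0.08 for Slc6a8 (0.000413) and -0.72 ± 0.24 for Alpl (0.0158), each with its limma adjusted p. The fifth call, -1.39 ± 0.14 for Ckmt1 (limma adjusted p = 1.77e-06), is a description, as Ckmt1 entered the test only through NFIA-Tg cultures at day 0. For Ucp1 it was 7.17 ± 0.15 (limma adjusted p = 4.75e-12). Of the linked lists, SERCA regulators gave 3 rises and 0 falls of 4 in the same test, led by Hax1 (1.04 ± 0.08), beside 2.91 ± 0.09 for the pump Atp2a3, and plasma membrane and Golgi genes 1 rise and 6 falls of 9, led by Cacna1g (-4.00 ± 0.13).

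The genotype effect in iWAT minus that at day 7, each taken within its own table, was called for 5 of 6 tested members, 2 higher and 3 lower, beside 54.3% of the 13101 genes tested, 35.8% higher and 18.5% lower. Of all calls 65.9% were higher, but 49.8% under median-of-ratios scaling and 53.4% under quantile normalization. The difference was -1.61 ± 0.19 for Ckb (limma adjusted p = 2.44e-05), -1.91 ± 0.16 for Alpl (1.53e-06) and -0.40 ± 0.10 for Atp2a2 (0.00447), and 1.95 ± 0.26 for Slc6a8 (7.01e-05) and 1.18 ± 0.22 for Gamt (0.000856), each with its limma adjusted p. For Gamt this is a smaller deficit in iWAT than at day 7, and for Slc6a8 a change of direction. For Ucp1 the difference was -6.74 ± 0.39 (limma adjusted p = 1.04e-07). Nfia was higher in NFIA-Tg in iWAT and lower in the libraries labelled NFIA-Tg at day 7.

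In order of group means, Ckb was highest in iWAT, at 28.3 FPKM in NFIA-Tg and 30.5 FPKM in WT with overlapping ranges, followed by NFIA-Tg at day 0 (19.8), NFIA-Tg at day 7 (7.48), WT at day 0 (5.22) and WT at day 7 (1.97), with no overlap between those neighbours. It made up 90.6% to 100% of the FPKM of the 4 creatine kinase genes in every library except WT iWAT replicate 3, where it was 64.2% and Ckm was 34.6%. Gamt was highest in WT iWAT (29.7 FPKM) and lowest in NFIA-Tg at day 7 (2.54 FPKM), with overlap between WT at day 7 and NFIA-Tg iWAT and between NFIA-Tg and WT at day 0. Slc6a8 was highest in WT at day 0 (39.8 FPKM) and lowest in NFIA-Tg at day 7 (7.504 FPKM). Alpl ran from 31.8 FPKM in NFIA-Tg at day 7 to 1.90 FPKM in WT at day 0, and Atp2a2 from 136 FPKM in NFIA-Tg at day 7 to 39.2 FPKM in WT iWAT, without overlap between neighbours for Atp2a2.

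Across the 12 cultures, which share the stated library kit and fall into 4 groups, the gene most like Ckb in log2(FPKM + 1) was Pltp (Pearson r = 0.994), followed by Ctsf (0.992). Those most alike were, for Gamt, Itpripl1 (0.996) and Sept9 (0.991), for Slc6a8 Plekho2 (0.999), for Alpl Chst15 (0.984) and Ugt1a6b (0.982), for Atp2a2 Ascc2 (0.995) and Hyou1 (0.994), and for Ckmt1 Ces2e (0.993) and Scn3b (0.992). Slc6a8 had 1302 genes above r = 0.95 and Alpl 37. Predicted Gm and Rik genes were left out of the ranking and of these counts, and 12552 is the number of genes before that step. Among the members themselves the closest opposite pair was Gamt and Atp2a2 (r = -0.954). The closest parallel pair was Ckb and Ckmt1 (r = 0.795). Each is a description over the same 12 libraries. Ckmt1 passed the filter on low values only through NFIA-Tg cultures before induction, with 46, 100 and 73 reads. Every other culture had 1 to 6 reads of it. The r values of Ckmt1 with Ckb, Ces2e and Scn3b therefore describe mainly that group, not a shared course over all cultures.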

How the data were processed

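Per the labels' protocols, a stranded kit for messenger RNA was used. Per the submitters' processing notes, StringTie 2.1.1, STAR 2.7.8a and mm9 were used, with no role given for each, and the sources used here do not give the strand setting. Per the file headers, the deposited values are FPKM with a length per gene. In iWAT 410 entries sharing 180 symbols were summed. In the cultures, whole reads (tolerance 0.01) were recovered from FPKM times length for 100% of values. Reads were recovered for the cultures only, and an exact 0 in iWAT is only listed as such.

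Groups came from the sample labels. limma 3.58.1 (R 4.3.3) was fitted to log2(FPKM + 1), using eBayes with trend, over genes that reached 1 FPKM in 3 or more fitted samples, with two-sided p-values Benjamini-Hochberg adjusted over all genes tested and called under 0.05. On this scale the change of low genes is understated. Genotype in iWAT used 6 samples (4 residual degrees of freedom), the 5 culture comparisons 12 samples (8) and iWAT against day 7 12 samples (8). Fits were tested on simulated data. Deviations from the group means correlated at r of -0.1372 to 0.1695 between same-numbered samples, and at -0.2206 to 0.2342 between others. With 3 samples per group this cannot exclude a pairing, and the main fits paired no samples. Alternatives were other pseudocounts, filters, scalings and fits, voom on recovered reads, a replicate block and leaving out each library.

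The 9 members, 8 linked lists and 9 marker lists were chosen with earlier results of these data known. Named genes are the members, Ucp1, Nfia, per list and comparison the 2 called genes with the smallest adjusted p (or the most abundant if none), and per member the 2 most alike genes. Atp2a3, Ckm and, where repeated, other genes were named after their values were seen. A few named genes are not reported here. Promoter sequences are RefSeq's on GRCm38.p6, and coordinates on mm9 are not used here.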

Additional observations from a re-analysis of the deposited data

Results flagged for a closer look

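The genotype effect differed between settings, by the test of the difference itself in limma, for the members and Ucp1 as follows. The effect at day 7 minus that at day 0, on the log2(FPKM + 1) scale, was -1.394 for Ckmt1, -2.182 for Gamt, -0.422 for Slc6a8, -0.7168 for Alpl, 1.153 for Atp2a2 and 7.174 for Ucp1. The effect in iWAT minus that at day 7 was -1.611 for Ckb, 1.181 for Gamt, 1.95 for Slc6a8, -1.906 for Alpl, -0.3975 for Atp2a2 and -6.741 for Ucp1. Ckmt1 passed the filter on low values only through NFIA-Tg cultures at day 0, so its value describes those libraries. Nfia was lower in the libraries labelled NFIA-Tg than in those labelled WT at day 7, so each of these differences involves groups whose Nfia level goes against the label.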

How the results depend on the processing

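No called change of a member reversed under any alternative run. The 16 reversals were all of changes that were not called. In iWAT, Ckb was -0.24 to 0.042 and Gatm -0.089 to 0.37 over the fits without 1 library, and the iWAT minus day 7 difference of Gatm -0.11 to 0.35. Gamt at day 0 was 0.026 with median-of-ratios scaling, 0.018 with quantile normalization, 0.013 with voom, and -0.044 to 0.0065 without 1 library. Ucp1 at day 0 was -0.021 with quantile normalization and -0.0099 to 0.031 without 1 library. With quantile normalization Ckmt1 was 0.032 at day 7 and -0.096 for differentiation in WT, and with voom the day 7 minus day 0 difference of Ckb was 0.082. That difference was called without WT day 7 replicate 2 (adjusted p 0.0366) or NFIA-Tg day 7 replicate 2 (0.0308). Slc6a8 lost its call with all 18 samples in 1 fit at day 0 (0.320) and for day 7 minus day 0 (0.138). Genes called for genotype in iWAT numbered 1413, 934 without the filter, 5141 with all 18 samples in 1 fit, and 617 to 1262 without 1 library. The number was 638 and 745 when NFIA-Tg replicate 2 or 3 was left out, and 814 and 617 when WT replicate 2 or 3 was left out. Scaling moved the median of all genes by 0.11 (median-of-ratios) to 0.15 (quantile) at day 7, by -0.15 (quantile) for differentiation in WT, by 0.13 (quantile) for day 7 minus day 0, and by -0.18 (median-of-ratios) for iWAT minus day 7. The cause of these shifts was not tested. The main fits did not pair samples by replicate number. With the replicate block, called genes numbered 1282 in iWAT, 10136 at day 7, 7822 at day 0, 10927 and 10239 for differentiation in NFIA-Tg and WT, 9027 for day 7 minus day 0 and 7097 for iWAT minus day 7, with as many members called as without it. Depth limits Ckmt1, Ckmt2, Gatm and Atp2a1, at few reads in most cultures, and unknown depth limits every iWAT value near 0.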

Other observations

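Marker lists of other cell types gave these summed levels. Macrophage markers summed to 711 to 863 FPKM in NFIA-Tg and 757 to 980 FPKM in WT iWAT, and to at most 15.2 FPKM in any culture. Smooth muscle markers summed to 215 to 321 FPKM in NFIA-Tg and 334 to 542 FPKM in WT iWAT, and at day 7 to 52.8 to 60.1 FPKM in NFIA-Tg and 111 to 129 FPKM in WT. Schwann cell markers summed to 256 to 294 FPKM in NFIA-Tg and 134 to 328 FPKM in WT iWAT, and neutrophil markers to 21.0 to 56.9 FPKM in NFIA-Tg and 12.6 to 26.2 FPKM in WT iWAT. Mammary epithelial markers summed to 1.18 to 1.94 FPKM in NFIA-Tg and 1.21 to 1.89 FPKM in WT iWAT. Preadipocyte and fibroblast markers summed to 835 to 1106 FPKM in NFIA-Tg and 892 to 1016 FPKM in WT iWAT, and adipocyte markers to 30366 to 41316 FPKM in NFIA-Tg and 31656 to 36973 FPKM in WT iWAT. At day 0, Atp2a3 had 9 to 14 reads in NFIA-Tg libraries and 9 to 19 reads in WT libraries, so that Atp2a2 made up 99.5% to 99.9% of SERCA FPKM there.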
